A study of Mus musculus with 31 samples.

Results

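The cell cycle genes described here are 45 genes of the copying and division machinery, 18 that act around S phase, when DNA is copied, and 27 that act in mitosis, when the copied chromosomes are separated. They were chosen by name, all 45 were found among the 24594 genes of the count table, and all 45 passed the filter on low counts that left 15202 genes for testing. The cells were regulatory T cells (Tregs), CD4 T cells that restrain immune responses, sorted as live CD45+ CD3+ CD4+ CD8- CD25+ cells. The sort used no FOXP3 gate, so that other CD25+ CD4 T cells could be included.

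The KEP mice, K14cre;Cdh1F/F;Trp53F/F on the FVB/N background, lose E-cadherin and p53 where a keratin 14 promoter drives Cre in epithelium, and carried spontaneous mammary tumors of 225 mm2. Wild-type (WT) littermate controls, wt;Cdh1F/F;Trp53F/F, had the same floxed alleles without Cre. The 31 libraries formed 10 groups: KEP spleen, tumor-draining lymph node, lung, blood and tumor with 3 libraries each, and WT spleen, lymph node, lung and blood with 3 each and WT mammary gland with 4. KEP libraries were made from single mice and WT libraries from 3 pooled mice each, so a WT library averages over animals. Levels are CPM values, counts relative to a library's total as scaled with TMM factors, and libraries are named by group and replicate number.

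Before S phase, a ring of 6 minichromosome maintenance proteins (Mcm2 to Mcm7) is loaded onto origins of replication with the help of Cdc6 and Cdt1, a step called licensing. E2F factors and cyclin E with its kinase then start copying, for which ribonucleotide reductase (Rrm1, Rrm2), thymidylate synthase (Tyms) and thymidine kinase (Tk1) supply nucleotides. Cyclin B with Cdk1 starts mitosis, Aurora, Polo and Bub1 kinases control it, motors such as Kif11 and Kif23 shape the spindle, and Cdc20 and Ube2c direct the anaphase-promoting complex to destroy cyclins. Most S phase genes are E2F targets whose transcripts peak around the entry into S phase, whereas transcripts of the mitotic genes accumulate late in the cycle, through Foxm1, Mybl2 and the DREAM complex. Tregs divide in the body more often than other resting CD4 T cells, mostly as effector Tregs.

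The classes also differed in the letters of the DNA in front of the genes. RefSeq promoters of the GRCm38.p6 build, from 250 bases before to 50 after the start of transcription, were found for 37 members. Searched on both strands, TTTGAA or TTTAAA (the cell cycle homology region, CHR, read by DREAM) was present in 17 of 21 mitosis promoters (81%), 5 of 16 S phase promoters (31.2%) and 27.8% of 27025 promoters. CCAAT, the NF-Y motif, was present in 17 of the 21 (81%), 9 of the 16 (56.2%) and 37.9% of all. Both together were present in 76.2% of the mitosis promoters, 18.8% of the S phase promoters and 10.9% of all. The E2F words TTTCCCGC, TTTCGCGC, TTTGCCGC or TTTGGCGC were found in 1 mitosis promoter (4.76%), 6 S phase promoters (37.5%) and 2.32% of all. These matches are letters in a window and do not show that a factor was bound. The promoters of Ccnb2 (cyclin B2) and Top2a (topoisomerase II alpha), among the mitotic genes whose levels are followed below, and of Mcm5, an MCM subunit whose level is set against them, are printed from 250 bases before to 30 after the start, along the gene's strand. Capitals mark CHR and CCAAT matches on either strand in Ccnb2 and Top2a, and the overlapping E2F matches in Mcm5.
Ccnb2, chr9:70421525-70421804 (minus strand): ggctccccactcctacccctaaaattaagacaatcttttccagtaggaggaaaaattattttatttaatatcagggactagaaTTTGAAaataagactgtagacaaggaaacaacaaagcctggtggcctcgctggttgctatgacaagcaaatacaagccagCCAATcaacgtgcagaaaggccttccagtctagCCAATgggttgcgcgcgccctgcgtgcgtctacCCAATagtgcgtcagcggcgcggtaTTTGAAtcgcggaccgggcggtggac
Top2a, chr11:99024160-99024439 (minus strand): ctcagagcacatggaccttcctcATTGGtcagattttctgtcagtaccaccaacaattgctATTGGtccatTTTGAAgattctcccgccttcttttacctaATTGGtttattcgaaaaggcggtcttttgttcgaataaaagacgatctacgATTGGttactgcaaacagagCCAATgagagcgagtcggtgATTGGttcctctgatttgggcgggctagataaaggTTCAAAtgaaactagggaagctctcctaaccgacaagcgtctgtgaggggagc
Mcm5, chr8:75109259-75109538 (plus strand): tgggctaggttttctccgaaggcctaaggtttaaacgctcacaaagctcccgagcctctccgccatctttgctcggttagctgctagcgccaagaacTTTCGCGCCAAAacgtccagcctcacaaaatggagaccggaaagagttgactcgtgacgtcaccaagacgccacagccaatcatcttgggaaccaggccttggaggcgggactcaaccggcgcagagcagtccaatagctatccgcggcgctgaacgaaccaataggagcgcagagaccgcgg
The Ccnb2 stretch holds 2 CHR words and 3 CCAAT words. The Mcm5 stretch holds 1 CHR word and 3 CCAAT words as well, left in lower case, and is one of the S phase promoters with both.

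Depth was 8154765 to 15258958 counts per library. The 10 pan-T markers together were at 83.35 to 103.8% of the WT spleen mean in the 24 libraries of spleen, lymph node, lung and blood. They were at 104.5, 59.98 and 31.6% in KEP tumor and at 7.807, 33.16, 2.9 and 3.652% in WT mammary gland, so T cell transcripts were a smaller share of most of those libraries. Foxp3, the Treg factor, had 1610, 846 and 462 CPM in KEP tumor and 93.5, 416.5, 18.7 and 31.2 CPM in WT mammary gland. In KEP spleen, lymph node, lung and blood, replicate 1, the library whose title carries the date 18_5_18, had the highest summed level of both classes in each tissue. Dates in the titles recur across the tissues of a genotype and never across genotypes, so date and genotype cannot be told apart. The labels do not say whether libraries of the same date came from the same mouse. Results that rest on the 18_5_18 libraries are given with and without them. Leaving them out was chosen after seeing that the members were highest in them. Dropping a high replicate also narrows the spread, so the p-values and calls of those fits are a description and no independent support. In bulk libraries, more dividing cells and more transcript per dividing cell cannot be told apart, for any of the levels below.

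**Figure D1:**
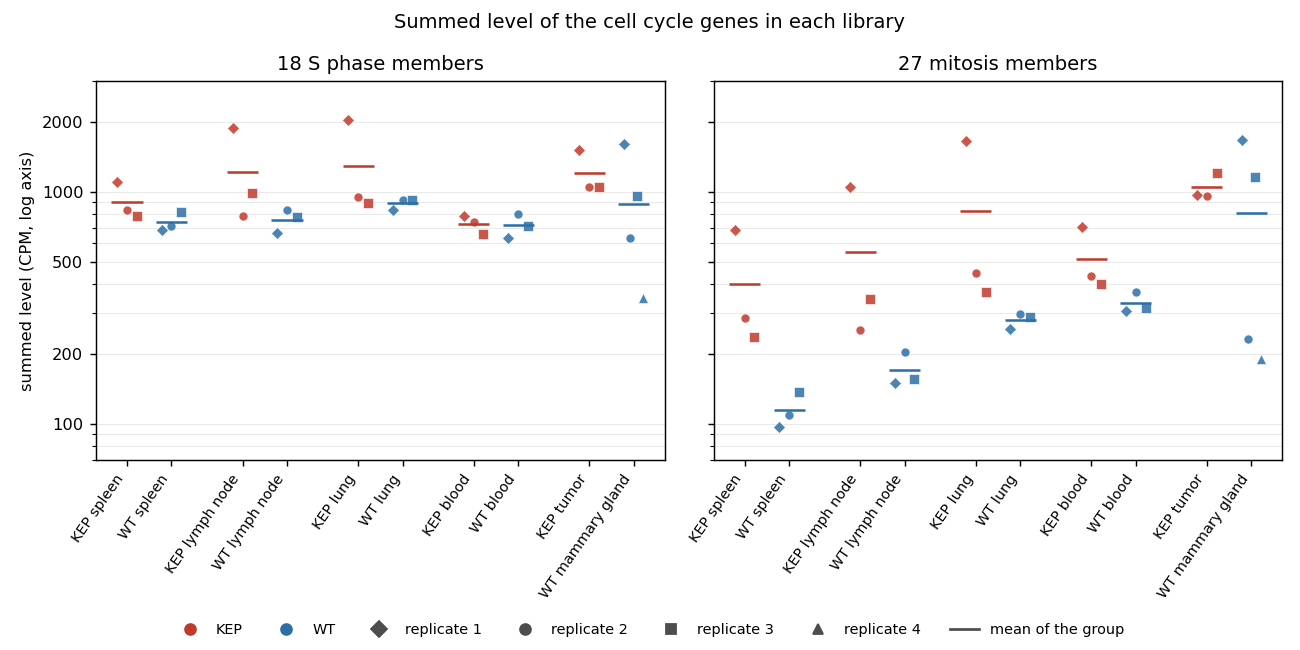
Summed levels of the 18 S phase members and of the 27 mitosis members in each of the 31 libraries (log axis, CPM), by tissue, with KEP groups left of WT groups; each point is a library. The mitosis sums span 96.5 to 1668 CPM and the S phase sums 348 to 2040 CPM, and the 18_5_18 library tops every KEP group of spleen, lymph node, lung and blood.

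The S phase genes were expressed in every group, while the mitotic genes ran from very low to high. The 18 S phase members summed to 1097, 833 and 787 CPM in KEP spleen and 687, 711 and 816 CPM in WT spleen. The 27 mitosis members summed to 683, 286 and 237 CPM in KEP spleen and 96.5, 109 and 137 CPM in WT spleen. The mitosis sum was thus 0.302 to 0.623 of the S phase sum in KEP spleen and 0.141 to 0.168 of it in WT spleen, without overlap. The same ratio was 0.322 to 0.558 in KEP and 0.201 to 0.244 in WT lymph node, 0.414 to 0.814 in KEP and 0.308 to 0.321 in WT lung, and 0.585 to 0.896 in KEP and 0.444 to 0.483 in WT blood, again without overlap in any tissue. In KEP tumor it was 0.637 to 1.16, within the 0.364 to 1.2 of WT mammary gland.

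Compared between genes per kilobase of exon, the mean levels in WT spleen were headed by Mcm4 with 34.4 CPM per kb and Pcna, the sliding clamp of the polymerase, with 33.6 CPM per kb. The lowest were Ccne2 (cyclin E2) with 0.0709 CPM per kb and Cenpf, a kinetochore protein, with 0.0701 CPM per kb. In KEP tumor Pcna had 55 CPM per kb and Stmn1 (stathmin, which destabilizes microtubules) had 33.1 CPM per kb, above Mcm6 with 31.9 and Mcm4 with 29.5 CPM per kb.

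**Figure D2:**
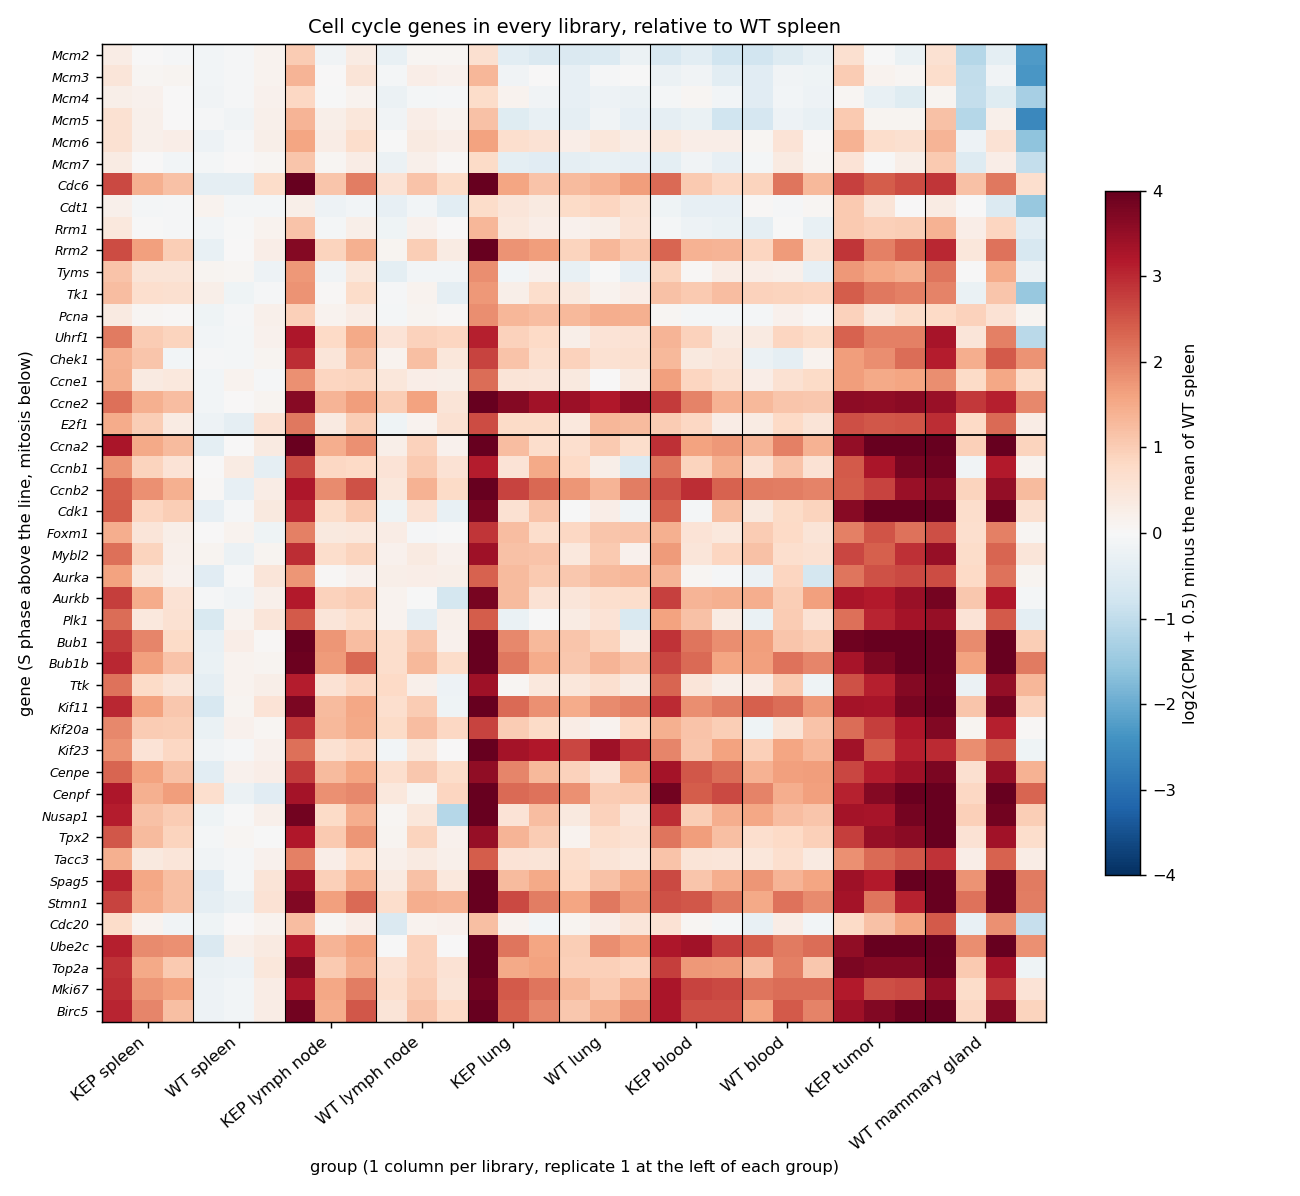
Level of each of the 45 members (rows, S phase above mitosis) in each of the 31 libraries (columns), as the log2 difference from the member's mean over WT spleen libraries, computed on CPM with 0.5 added (red higher, blue lower, colours limited to 4 in either direction). Ccnb2 in KEP spleen, for example, stands at 16.1, 10.6 and 7.96 CPM against 1.97 to 3.36 CPM in WT spleen, while the Mcm2 cells of both groups are near white; mammary gland replicates 1 and 3 are redder than replicates 2 and 4 in most mitosis rows.

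The first question of the design is whether Tregs outside the tumor differ between tumor-bearing and WT mice, and in the spleen the mitotic genes were higher in KEP libraries while the licensing genes were near their WT level. Mki67 (ENSMUSG00000031004, chr7:135689788-135716379 of GRCm38, 14 exons), which coats mitotic chromosomes and is the standard label of cycling cells, had 167, 73.0 and 65.9 CPM in KEP spleen and 18.4, 19.7 and 26.1 CPM in WT spleen. Every KEP library was above every WT library, at a log2 fold change of 2.25 with a standard error (SE) of 0.61. In edgeR's quasi-likelihood test over all 31 libraries, with Benjamini-Hochberg adjustment over the 15202 genes, its adjusted p was 0.122, and a gene was called at an adjusted p under 0.05.

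Of the 27 mitosis members, 24 had every KEP spleen library above every WT spleen library, as had 7 of the 18 S phase members, against 12.3% of all genes tested, and none was lower without overlap, against 9.57%. The median log2 fold change was 1.94 over the mitosis members, 0.57 over the S phase members and 0 over all genes. All 45 members had a log2 fold change above 0. None was called in this fit, in which 0.447% of genes were called, 0.434% higher. An unadjusted p under 0.05 was found for 20 members, 17 of them mitotic. DESeq2 called 4, and limma voom with a spread per group called 1, where voom called 4.66% of genes. The shares of all genes for the unadjusted p and DESeq2 are not given, here or in the tissues below.

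By role, the 6 mitotic cyclins, Cdk1 and transcription factors and the 10 spindle and kinetochore proteins all had KEP spleen libraries above WT spleen libraries, at median log2 fold changes of 1.62 and 1.92. Ccnb2 (chr9:70407689-70421554, 9 exons), whose promoter is printed above, had 16.1, 10.6 and 7.96 CPM in KEP spleen and 2.72, 1.97 and 3.36 CPM in WT spleen, at a log2 fold change of 2.09 ± 0.62 (SE) and an adjusted p of 0.185 (edgeR quasi-likelihood, Benjamini-Hochberg). Cdk1, the kinase that cyclin B activates, had 13.7, 4.29 and 4.76 CPM in KEP spleen and 1.596, 2.06 and 2.99 CPM in WT spleen, at a log2 fold change of 1.75 ± 0.97 (SE). Both genes were higher in each KEP library, and for both the KEP replicates were themselves spread more than 2-fold.

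The chromosome-bound proteins had the same order. Top2a, which untangles sister chromatids, had 96.0, 36.7 and 26.5 CPM in KEP spleen and 10.5, 10.7 and 17.3 CPM in WT spleen. Birc5 (survivin), which guides the chromosomal passenger complex with Aurkb, had 16.8, 7.67 and 4.37 CPM in KEP spleen and 1.31, 1.46 and 2.09 CPM in WT spleen. Neither gene's groups overlapped; their log2 fold changes were 2.04 ± 0.85 and 2.54 ± 0.85 (SE). Ube2c, which loads ubiquitin for the anaphase-promoting complex, had 10.8, 4.36 and 4.21 CPM in KEP spleen and 0.376, 1.03 and 1.20 CPM in WT spleen. Its partner Cdc20 was the mitosis member with the least sign of a difference, with 20.2, 13.2 and 10.7 CPM in KEP spleen and 10.5, 12.1 and 13.1 CPM in WT spleen, where the groups overlapped.

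Among the S phase members the difference depended on the role. The 8 licensing members had a median log2 fold change of 0.18, and only 1 of them, Cdc6, had KEP and WT spleen libraries that did not overlap. Mcm2 had 96.0, 78.8 and 75.3 CPM in KEP spleen and 72.3, 75.01 and 85.7 CPM in WT spleen, and Mcm5 had 108, 80.8 and 71.5 CPM in KEP spleen and 68.5, 64.0 and 80.6 CPM in WT spleen. For both, the groups overlapped, and the log2 fold change of Mcm5 was 0.29 ± 0.55 (SE). Cdt1, which delivers the helicase, had 53.5, 44.3 and 44.8 CPM in KEP spleen and 51.5, 44.4 and 44.4 CPM in WT spleen, the largest p of the class.

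Nucleotide supply lay between. Rrm2, the subunit of ribonucleotide reductase made for S phase, had 54.7, 27.4 and 17.2 CPM in KEP spleen and 6.85, 8.56 and 10.4 CPM in WT spleen, at a log2 fold change of 1.94 ± 0.82 (SE). Tyms had 22.6, 14.4 and 14.6 CPM in KEP spleen and 10.99, 10.7 and 8.66 CPM in WT spleen, at a log2 fold change of 0.77 ± 0.54 (SE). Neither gene overlapped between genotypes, and neither was called. Pcna, at the fork, had 102, 84.6 and 83.2 CPM in KEP spleen and 71.3, 77.9 and 92.5 CPM in WT spleen, with overlap, while Uhrf1, which copies DNA methylation, had 52.8, 25.2 and 23.2 CPM in KEP spleen and 11.4, 11.6 and 13.8 CPM in WT spleen, without overlap.

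Ccne2, which starts S phase, had the smallest p of the S phase members, with 2.93, 1.505 and 1.25 CPM in KEP spleen and 0.188, 0.257 and 0.299 CPM in WT spleen, the WT values resting on 2, 3 and 4 reads. Its log2 fold change was 2.86 ± 0.73 (SE) at an edgeR adjusted p of 0.0911. Reads of Ccne2 are uncertain, since 609 bases of its exons overlap Ints8 on the opposite strand and no source says whether counting used the strand. Another 9 members share exon bases with a gene of the table (Mcm7, Tk1, Ccna2, Foxm1, Kif20a, Nusap1, Tacc3, Cdc20 and Ube2c), and their values are uncertain too. In all but Foxm1 that gene lies on the opposite strand. Foxm1 overlaps Tex52 on the same strand, so its uncertainty does not depend on the strand setting.

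**Figure D3:**
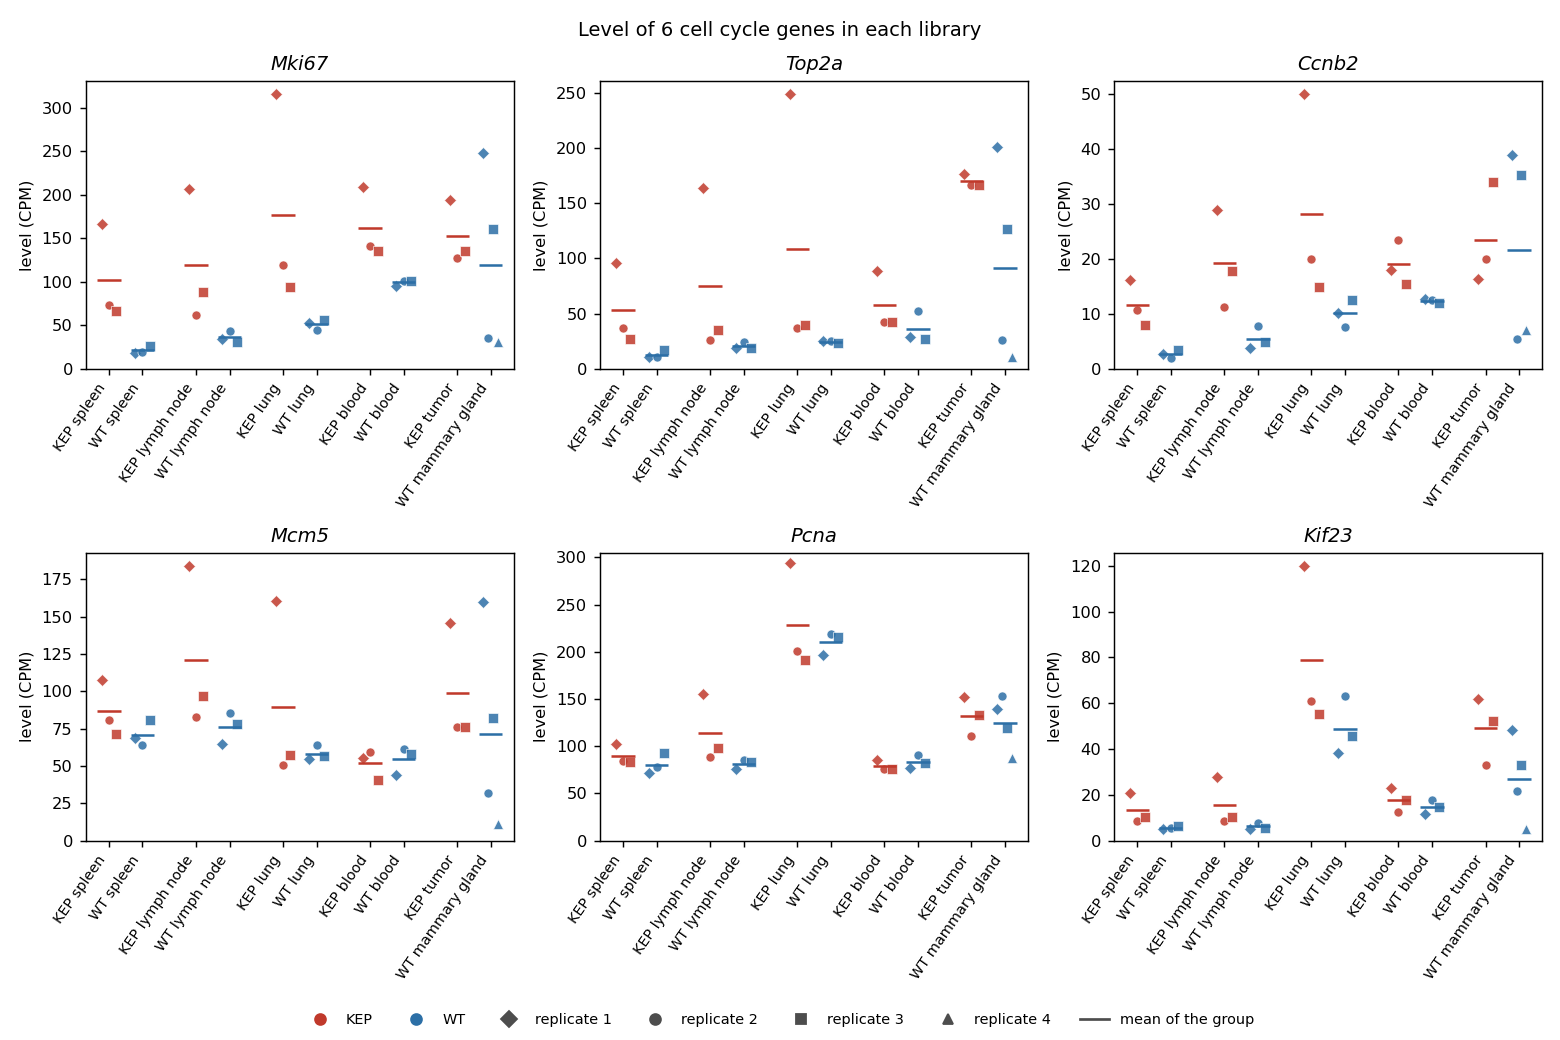
Levels (CPM, linear axes) of Mki67, Top2a, Ccnb2, Mcm5, Pcna and Kif23 in every library, by group, with KEP left of WT in each tissue; each point is a library, its shape the replicate number, and the horizontal bar is the group mean. Mki67, Ccnb2 and Top2a show every KEP spleen point above the WT spleen points, whereas the Mcm5 and Pcna points of spleen overlap, and Pcna and Kif23 have their highest group means in KEP lung.

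The spread of this fit is shared with tumor and mammary gland libraries, which varied most. In a fit of the 24 libraries of spleen, lymph node, lung and blood, 2 members rose in KEP spleen, Mki67 at a log2 fold change of 2.24 ± 0.50 (SE) and Ccnb2 at 2.09 ± 0.48 (SE), both at an edgeR adjusted p of 0.0162, where 3.3% of genes were called higher. Without the 18_5_18 libraries, the 24-library fit called 18 members higher in KEP spleen, Rrm2, Uhrf1, Ccne2 and 15 mitosis members, where 2.61% of genes were called higher. There Mki67 had a log2 fold change of 1.70 ± 0.17 (SE) at an adjusted p of 6.68e-06, Ccnb2 of 1.78 ± 0.31, Birc5 of 1.88 ± 0.37 and Top2a of 1.29 ± 0.26. The medians were then 1.29 over the mitosis members and 0.33 over the S phase members, so that the values were smaller and the calls more numerous without the library with the highest levels. That library was left out after its levels were seen, so these p-values are no independent support. The same 24 mitosis and 7 S phase counts of members without overlap were found without it, against 16.4% of genes. Leaving out a KEP library cannot lower such a count, so the equal counts could not have come out smaller.

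Summed markers of other dividing cells were set beside these values. The 8 B cell markers summed to 102.3, 40.03 and 63.11 CPM in KEP spleen and 73.99, 64.99 and 35.7 CPM in WT spleen, and the 7 measured of 8 germinal centre and plasma cell markers to 36.27 to 38.18 CPM in KEP spleen and 34.08 to 46.07 CPM in WT spleen, both overlapping. The 9 measured of 10 erythroid precursor markers summed to 241.3, 555.5 and 81.21 CPM in KEP spleen and 259.5, 27.83 and 147.1 CPM in WT spleen, also overlapping. Klf1, which defines erythroid precursors, was at 1.26, 0.527 and 1.25 CPM in KEP spleen and 0.47, 0.171 and 0.0747 CPM in WT spleen, so it moved with genotype; its part in the mitotic levels was not tested. The 8 Treg markers summed to 3043 to 4105 CPM in KEP spleen and 2120 to 2613 CPM in WT spleen, which moved with genotype too, and Foxp3 had 1278, 1121 and 1455 CPM in KEP spleen and 874, 892 and 716 CPM in WT spleen. The 7 CD8 T and NK cell markers summed to 45.8 to 97.51 CPM in KEP spleen and 98.59 to 179.7 CPM in WT spleen, the 9 measured macrophage and monocyte markers to 16.7 to 37.21 CPM in KEP and 8.814 to 12.58 CPM in WT spleen, and the 9 epithelial markers to 15.42 to 25.79 CPM in KEP and 8.92 to 10.87 CPM in WT spleen. These lists also moved with genotype, and the part of the makeup of the sorted cells in the mitotic levels was not tested.

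In the lymph node, which drained the tumor in KEP mice, the same classes stood apart, and the level depended more on the 18_5_18 library. Ccnb2 had 28.9, 11.2 and 17.9 CPM in KEP lymph node and 3.75, 7.75 and 4.84 CPM in WT lymph node, at a log2 fold change of 1.84 ± 0.59 (SE) and an edgeR adjusted p of 0.511. Mki67 had 207, 62.2 and 88.4 CPM in KEP lymph node and 34.4, 43.3 and 30.4 CPM in WT lymph node, at a log2 fold change of 1.73 ± 0.60 (SE). For both, each KEP library was above each WT library, replicate 1 by far the most. Without overlap were 21 of 27 mitosis members and 3 of 18 S phase members, against 11.3% of genes, with median log2 fold changes of 1.86 and 0.87; none was lower without overlap, against 9.85%.

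Top2a had 164, 26.2 and 35.0 CPM in KEP lymph node and 18.9, 24.04 and 18.8 CPM in WT lymph node, where KEP replicate 2 was just above the highest WT library. Birc5 had 30.2, 5.31 and 11.3 CPM in KEP lymph node and 2.50, 4.10 and 3.16 CPM in WT lymph node, and Cdk1 had 21.2, 3.96 and 4.93 CPM in KEP lymph node and 1.88, 3.43 and 1.68 CPM in WT lymph node. Both were higher in each KEP library. Aurka, the kinase that matures spindle poles, had the largest p of the mitosis members with 9.74, 2.61 and 2.88 CPM in KEP lymph node and 3.04, 3.10 and 3.07 CPM in WT lymph node: replicate 1 alone lay above the WT libraries, and the other two KEP libraries lay below them.

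Licensing and nucleotide supply members were highest in the same library. Mcm2 had 157, 70.2 and 96.7 CPM in KEP lymph node and 62.6, 81.1 and 82.5 CPM in WT lymph node, and Mcm5 had 184, 82.6 and 96.7 CPM in KEP lymph node and 64.6, 85.4 and 78.4 CPM in WT lymph node. Rrm2 had 115, 16.2 and 23.5 CPM in KEP lymph node and 9.11, 17.3 and 10.7 CPM in WT lymph node, and Tyms had 34.5, 9.10 and 14.1 CPM in KEP lymph node and 7.59, 9.30 and 9.21 CPM in WT lymph node. In all 4 genes KEP replicate 2 lay within the range of the WT libraries and replicate 1 far above it. Pcna had 155, 89.0 and 98.5 CPM in KEP lymph node and 75.4, 85.5 and 83.1 CPM in WT lymph node, without overlap, and Cdt1 had 54.99, 40.01 and 42.9 CPM in KEP lymph node and 36.7, 43.0 and 34.8 CPM in WT lymph node, with overlap. Ccne2 had 8.72, 1.43 and 1.89 CPM in KEP lymph node and 0.982, 1.77 and 0.558 CPM in WT lymph node, also with overlap, although its p was the smallest of the class.

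None of the 45 was called in lymph node, where 0.0132% of genes were called higher. An unadjusted p under 0.05 was found for 26. DESeq2 called none, and voom with a spread per group called 2, where voom called 2.7% of genes. In the 24-library fit Ccnb2 alone rose, at a log2 fold change of 1.85 ± 0.44 (SE) and an edgeR adjusted p of 0.0489, where 0.663% of genes were called higher. Without the 18_5_18 libraries it rose at 1.44 ± 0.29 and Mki67 at 1.08 ± 0.17 (SE), at adjusted p-values of 0.0305 and 0.00751, where 0.185% of genes were called higher. That fit, too, was chosen after the levels were seen. The medians were then 0.81 over the mitosis members and 0.31 over the S phase members. B cell markers summed to 35.96 to 51 CPM in KEP and 25.96 to 42.77 CPM in WT lymph node, overlapping, and Klf1 was at 0 in each KEP lymph node library. Lists that moved with genotype were Treg markers, with 4063 to 4403 CPM in KEP and 3086 to 4045 CPM in WT lymph node, CD8 T and NK cell markers, with 21.31 to 24.02 CPM in KEP and 40.2 to 60.44 CPM in WT, macrophage and monocyte markers, with 16.71 to 20.97 CPM in KEP and 7.816 to 15.71 CPM in WT, and erythroid and milk protein markers at low levels. Their part was not tested.

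In lung the median difference between genotypes was again larger over the mitosis members than over the S phase members. Mki67 had 316, 119 and 94.4 CPM in KEP lung and 52.5, 44.2 and 56.2 CPM in WT lung, at a log2 fold change of 1.79 ± 0.59 (SE) and an edgeR adjusted p of 0.0952. Ccnb2 had 49.95, 19.9 and 14.8 CPM in KEP lung and 10.2, 7.61 and 12.5 CPM in WT lung, at a log2 fold change of 1.48 ± 0.58 (SE). Neither overlapped. Without overlap were 10 of 27 mitosis members and 5 of 18 S phase members, against 14.6% of genes, and the median log2 fold changes were 1.84 and 0.70.

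The largest values came from the 18_5_18 library. Top2a had 248, 37.0 and 39.2 CPM in KEP lung and 24.9, 24.8 and 23.1 CPM in WT lung, and Birc5 had 45.6, 10.4 and 7.68 CPM in KEP lung and 3.88, 5.07 and 6.77 CPM in WT lung. Cdk1 had 36.4, 3.55 and 5.37 CPM in KEP lung and 2.105, 2.67 and 1.92 CPM in WT lung. Bub1, the checkpoint kinase at kinetochores, had 21.4, 2.71 and 1.57 CPM in KEP lung and 1.33, 1.07 and 0.564 CPM in WT lung. In these 4 genes the KEP libraries all lay above the WT libraries, replicates 2 and 3 much closer to them than replicate 1. For Cdc20 the groups overlapped, with 27.8, 13.1 and 11.01 CPM in KEP lung and 12.7, 14.3 and 16.6 CPM in WT lung.

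S phase members overlapped more. Ccne1 (cyclin E1), the member with the smallest p of its class in lung, had 22.7, 6.63 and 6.38 CPM in KEP lung and 5.98, 4.54 and 5.75 CPM in WT lung, without overlap, at a log2 fold change of 1.13 ± 0.43 (SE). Rrm2 had 184, 30.9 and 27.8 CPM in KEP lung and 16.3, 22.3 and 18.1 CPM in WT lung, without overlap, and Tyms had 37.9, 9.35 and 11.5 CPM in KEP lung and 8.09, 9.87 and 7.90 CPM in WT lung, with overlap. Mcm2 had 122, 57.7 and 51.3 CPM in KEP lung and 51.6, 52.6 and 65.9 CPM in WT lung, and Mcm5 had 160.4, 50.4 and 57.2 CPM in KEP lung and 54.5, 63.8 and 56.5 CPM in WT lung. Apart from replicate 1, these licensing levels lay within or below the range of the WT libraries. Pcna had 294, 201 and 191 CPM in KEP lung and 196, 219 and 215 CPM in WT lung, and Ccne2 had 21.5, 8.97 and 7.12 CPM in KEP lung and 7.42, 6.41 and 8.01 CPM in WT lung, both with overlap.

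In the fit of all libraries no member was called in lung, where 3.09% of genes were called, 1.66% higher and 1.42% lower. An unadjusted p under 0.05 was found for 22. DESeq2 called 3, and voom with a spread per group called 1, where voom called 12.4% of genes. The 24-library fit called 7 mitosis members higher, where 9.61% of genes were called higher: Ccnb1, Ccnb2, Cdk1, Bub1, Cenpf, Tpx2 (which activates Aurka on spindle microtubules) and Mki67, with edgeR adjusted p-values of 0.0167 to 0.0478. Without the 18_5_18 libraries only Mki67 stayed called higher, at a log2 fold change of 1.07 ± 0.16 (SE) and an adjusted p of 0.000611, and Cdt1 was called lower at -0.33 ± 0.10 (SE), with an adjusted p of 0.0468, where 9.8% of genes were called, 5.24% higher. The share of the members called was thus below that of all genes, in a fit chosen after the levels were seen. The medians were then 0.49 over the mitosis members and 0.11 over the S phase members. Cdt1 had 78.4, 65.6 and 60.4 CPM in KEP lung and 79.0, 85.5 and 73.0 CPM in WT lung, so that replicate 1 alone was within the WT range.

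Marker lists moved with genotype in lung too. Treg markers summed to 6348 to 6666 CPM in KEP lung and 4144 to 5139 CPM in WT lung, and CD8 T and NK cell markers to 26.1 to 45.13 CPM in KEP lung and 69.96 to 91.27 CPM in WT lung. Macrophage and monocyte markers summed to 40.02 to 83.71 CPM in KEP lung and 102.9 to 174.6 CPM in WT lung, and epithelial markers to 25.6 to 33.21 CPM in KEP lung and 15.35 to 25.16 CPM in WT lung. The part of these cells in the lung differences was not tested.

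In blood the class medians of the difference between genotypes were the smallest of the 4 tissues, 0.65 for mitosis and 0.14 for S phase members. Mki67 had 209, 141 and 135 CPM in KEP blood and 95.7, 101 and 101 CPM in WT blood, without overlap, at a log2 fold change of 0.70 ± 0.58 (SE) and an edgeR adjusted p of 0.569. Ccnb2 had 18.1, 23.5 and 15.4 CPM in KEP blood and 12.7, 12.4 and 11.9 CPM in WT blood, also without overlap, at 0.62 ± 0.57 (SE). Cenpe, the motor that carries chromosomes to the spindle's middle, had the smallest p of the mitosis members with 31.2, 17.2 and 14.4 CPM in KEP blood and 7.90, 9.33 and 9.66 CPM in WT blood. Here 8 of 27 mitosis members and 4 of 18 S phase members were higher without overlap, against 16% of genes, and 2 S phase members were lower without overlap, against 12.8%.

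Most other members overlapped in blood. Top2a had 88.8, 42.5 and 42.0 CPM in KEP blood and 28.9, 52.4 and 26.9 CPM in WT blood, and Cdk1 had 13.2, 1.99 and 5.66 CPM in KEP blood and 3.02, 4.00 and 4.39 CPM in WT blood. Rrm2 had 44.6, 23.1 and 22.5 CPM in KEP blood and 15.8, 28.9 and 13.3 CPM in WT blood, and Foxm1, the activator of mitotic genes, had 23.1, 12.4 and 11.3 CPM in KEP blood and 17.3, 14.9 and 12.2 CPM in WT blood. In each of these 4 the WT range held at least 1 KEP library or lay between KEP libraries. Birc5 did not overlap, with 19.7, 12.02 and 11.9 CPM in KEP blood and 5.82, 10.99 and 7.71 CPM in WT blood. Nor did Ccne2, with 4.70, 2.44 and 1.46 CPM in KEP blood and 1.35, 1.11 and 1.07 CPM in WT blood.

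The licensing members had a median log2 fold change of -0.04 in blood, and Mcm4 alone among them was higher without overlap. Mcm2 had 49.6, 58.0 and 44.0 CPM in KEP blood and 45.3, 53.9 and 62.8 CPM in WT blood, and Mcm5 had 55.5, 59.3 and 40.4 CPM in KEP blood and 44.1, 61.4 and 57.8 CPM in WT blood. The 2 members lower without overlap were Mcm7, with 56.3, 66.9 and 58.7 CPM in KEP blood and 69.9, 96.0 and 78.9 CPM in WT blood, and Cdt1, with 41.6, 36.8 and 36.8 CPM in KEP blood and 47.7, 45.3 and 49.6 CPM in WT blood. Tyms, Pcna and Cdc6 overlapped, Cdc6 with 10.1, 4.07 and 3.43 CPM in KEP blood and 3.54, 9.10 and 4.88 CPM in WT blood.

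No member was called in blood by the fit of all libraries, where 4.32% of genes were called, 2.18% higher and 2.14% lower, and none had an unadjusted p under 0.05. DESeq2 called none, nor did voom with a spread per group, where voom called 12.6% of genes. Without the 18_5_18 libraries the 24-library fit called Cenpe higher at a log2 fold change of 0.80 ± 0.26 (SE), and Mcm7 and Cdt1 lower at -0.39 ± 0.13 and -0.38 ± 0.11 (SE), at edgeR adjusted p-values of 0.0439, 0.0422 and 0.0214, where 14.1% of genes were called, 7.24% higher. The share of the members called was thus below that of all genes, in a fit chosen after the levels were seen. The mitosis median was then 0.05 and the S phase median 0.01. Treg markers summed to 4272 to 5383 CPM in KEP blood and 2420 to 3275 CPM in WT blood and epithelial markers to 25.22 to 43.64 CPM in KEP and 6.439 to 15.7 CPM in WT blood, without overlap, and their part was not tested.

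**Figure D4:**
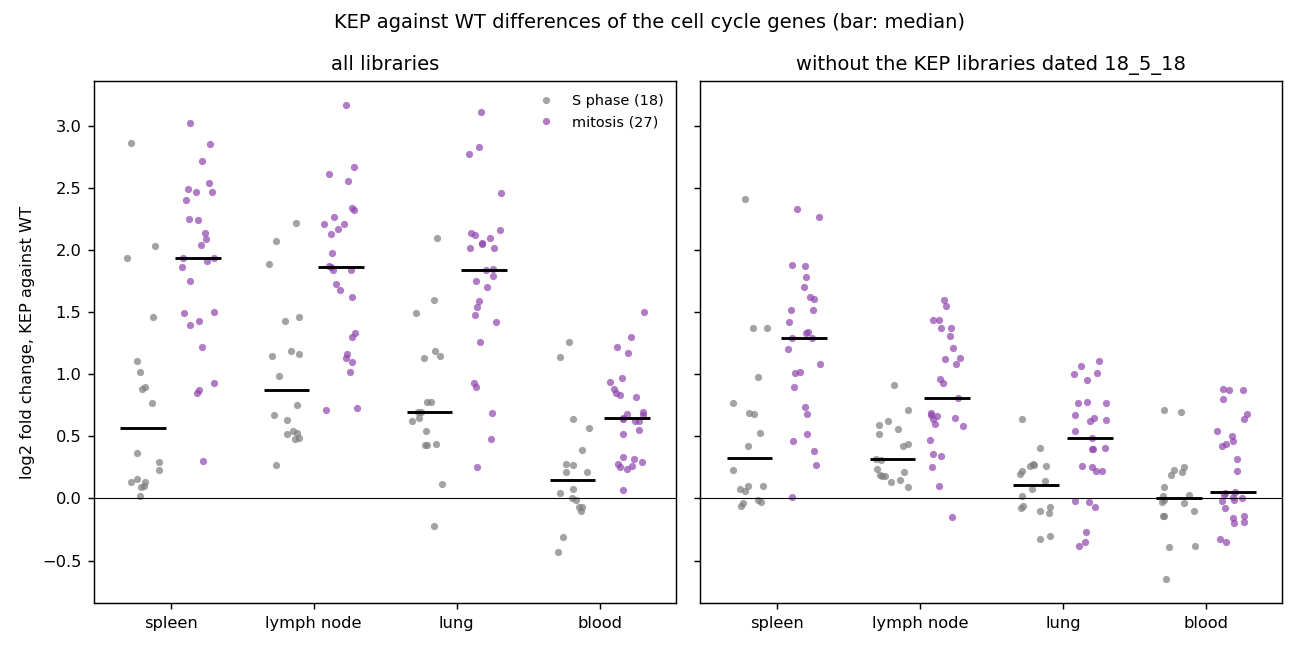
The log2 fold change of KEP over WT for each member in spleen, lymph node, lung and blood, S phase and mitosis members apart, in the fit of all libraries (left) and in the 24-library fit without the libraries dated 18_5_18 (right); each point is a member and the bar is the class median. With them the mitosis medians are 1.94, 1.86, 1.84 and 0.65, and the S phase medians lie lower in each tissue; without them the medians are closer to 0.

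Whether the KEP difference itself differed between tissues was tested as a contrast of differences. No member, and no gene at all, was called for lymph node against spleen, lung or blood in edgeR's test over all libraries. The member with the smallest p for lymph node against blood among the S phase genes was Cdc6, the licensing loader, with 35.0, 4.21 and 8.55 CPM in KEP lymph node and 2.77, 4.32 and 3.26 CPM in WT lymph node. Its difference of log2 fold changes was 2.21 ± 1.08 (SE) at an adjusted p of 0.848. With title date as a block in the 24-library fit, 9 members were called higher for lymph node against blood, 1 for lymph node against lung and none for lymph node against spleen, where 3.58%, 2.16% and 0.0156% of genes were called higher.

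In the tumor, set against WT mammary gland, the cell cycle genes gave 2 calls. The mammary gland libraries spanned a wider range than the tumor libraries. Mki67 had 194, 128 and 135 CPM in KEP tumor and 248, 35.5, 161 and 31.1 CPM in WT mammary gland. Top2a had 177, 166 and 167 CPM in KEP tumor and 200.5, 26.5, 126 and 11.01 CPM in WT mammary gland. Cdk1 had 32.3, 46.0 and 60.5 CPM in KEP tumor and 57.7, 3.80, 39.7 and 3.65 CPM in WT mammary gland. Tumor libraries lay close together for Top2a, while mammary gland replicates 1 and 3 were high and replicates 2 and 4 low for all 3 genes.

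The same order of the mammary gland libraries ran through the set, with mitosis sums of 967, 958 and 1210 CPM in KEP tumor and 1668, 231, 1154 and 190.4 CPM in WT mammary gland. Their pan-T levels did not order them that way, since replicate 2 held 33.16% of the WT spleen level and the other three 2.9 to 7.807%. The 9 epithelial markers summed to 171.3 to 2226 CPM in KEP tumor and 5229 to 7131 CPM in WT mammary gland. The 9 measured of 10 macrophage and monocyte markers summed to 898.5 to 5648 CPM in KEP tumor and 378.1 to 850.7 CPM in WT mammary gland, and the 8 stroma and endothelium markers to 2823 to 7035 CPM in KEP tumor and 2300 to 5325 CPM in WT mammary gland. These cells lie outside the sort gate, and the part of their transcripts in these levels was not tested.

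Called against mammary gland were 2 S phase members and no mitosis member, where 53% of genes were called, 23.5% higher. Tk1, which salvages thymidine, had 52.9, 42.2 and 39.7 CPM in KEP tumor and 38.8, 7.77, 21.04 and 2.96 CPM in WT mammary gland, without overlap, and rose by a log2 fold change of 1.35 ± 0.49 (SE; edgeR adjusted p of 0.0248). Cdt1 had 96.9, 66.6 and 47.0 CPM in KEP tumor and 58.8, 46.9, 32.1 and 16.1 CPM in WT mammary gland, with overlap, and rose by 0.87 ± 0.26 (SE; adjusted p of 0.00674). Tk1 and Ccne2 were the members without overlap, against 14% of genes. Scaling to the pan-T counts moved the median of all genes to -3.41, with 92.9% of genes called and 0.855% called higher. All 45 members were then called lower. Cdt1 at -2.37 and Tk1 at -2.01 lay above that median, as did most members, such as Kif23 at -2.39 and Plk1 at -2.4. Stmn1 at -4.06, Cenpf at -3.73 and Chek1 at -3.69 lay below it. The count of calls was 0 without KEP tumor replicate 1, 9 without mammary gland replicate 1 and 1 without mammary gland replicate 2. The share of all genes called in those fits is not given. With mammary gland replicate 2, the one with most T cell transcripts, as the lone control library, whose spread is assumed to be that of the other groups, 16 members were called higher, 5 of S phase and 11 of mitosis, where 13% of genes were.

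The tumor was also set against spleen and lymph node of KEP mice, in contrasts that share the tumor libraries, and most mitosis members lay above spleen without overlap while few did so against lymph node. Of the 45, 15 rose in tumor against KEP spleen, 5 of S phase and 10 of mitosis, where 61.5% of genes were called, and 35.6% called higher, a share close to that of the members. Without overlap were 23 of 27 mitosis members and 9 of 18 S phase members, against 33.5% of genes. The median log2 fold change was 1.49 over the mitosis members and 0.65 over the S phase members, beside 0.13 over all genes. The S phase members called were Ccne2, Pcna, E2f1, Rrm1 and Tk1, and the mitosis members were Kif23, Cdk1, Aurka, Bub1, Bub1b, Ccnb1, Foxm1, Tacc3, Spag5 and Ube2c.

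Kif23 (chr9:61917280-61946799, 23 exons), the motor of the central spindle needed for cytokinesis, had 61.9, 33.2 and 52.1 CPM in KEP tumor and 20.9, 8.43 and 10.4 CPM in KEP spleen, a log2 fold change of 1.89 ± 0.53 (SE; edgeR adjusted p of 0.0038). Cdk1 had 32.3, 46.0 and 60.5 CPM in KEP tumor and 13.7, 4.29 and 4.76 CPM in KEP spleen, a log2 fold change of 2.61 ± 0.92 (SE; 0.0175). Aurka had 12.9, 17.3 and 18.2 CPM in KEP tumor and 8.79, 3.54 and 2.89 CPM in KEP spleen, and Bub1 had 12.2, 18.1 and 22.3 CPM in KEP tumor and 5.36, 2.78 and 0.936 CPM in KEP spleen. The groups of these 4 genes did not overlap, and spleen replicate 1 was the nearest to the tumor in each. Mki67, in contrast, had the largest p of the mitosis members, with 194, 128 and 135 CPM in KEP tumor and 167, 73.0 and 65.9 CPM in KEP spleen. Top2a had tumor libraries of 166 to 177 CPM and KEP spleen libraries of 26.5 to 96.0 CPM, yet its adjusted p was 0.0753.

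Ccne2 had 8.34, 8.27 and 8.67 CPM in KEP tumor and 2.93, 1.505 and 1.25 CPM in KEP spleen, a log2 fold change of 2.15 ± 0.58 (SE; edgeR adjusted p of 0.00251). E2f1, the activator of S phase genes, had 23.9, 22.4 and 22.7 CPM in KEP tumor and 10.9, 7.60 and 4.60 CPM in KEP spleen. Pcna had 152, 110.4 and 133 CPM in KEP tumor and 102, 84.6 and 83.2 CPM in KEP spleen, a smaller rise of 0.55 ± 0.20 (SE), and Rrm1 had 126, 117 and 119.9 CPM in KEP tumor and 80.5, 60.4 and 58.4 CPM in KEP spleen. None of these 4 overlapped. Licensing was not among the calls: Mcm2 had 121, 76.6 and 65.0 CPM in KEP tumor and 96.0, 78.8 and 75.3 CPM in KEP spleen, with overlap.

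Fits with libraries left out are given without the share of all genes called, so their counts of calls do not set the members apart. The count against spleen depended on single libraries. It was 25 without KEP spleen replicate 1, 2 without replicate 2 or without replicate 3, and 9 without KEP tumor replicate 3. It was 34 with title date as a block, where 36.1% of genes were called higher, and 29 without all 18_5_18 libraries. Without those libraries all 27 mitosis and 13 S phase members had tumor and spleen libraries that did not overlap, against 42.7% of genes.

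Against KEP lymph node 4 mitosis members and no S phase member rose, where 35% of genes were called higher, and 6 mitosis and 2 S phase members were without overlap, against 32.2% of genes, so both shares were below those of all genes. Kif23 had 61.9, 33.2 and 52.1 CPM in KEP tumor and 27.6, 8.76 and 10.4 CPM in KEP lymph node, a log2 fold change of 1.65 ± 0.53 (SE; edgeR adjusted p of 0.00961). Aurka, Cdk1 and Ube2c rose at log2 fold changes of 1.66 ± 0.62, 2.20 ± 0.90 and 2.08 ± 0.81 (SE). Ube2c had 14.8, 24.01 and 38.1 CPM in KEP tumor and 11.6, 2.86 and 3.54 CPM in KEP lymph node. The S phase median was 0.00 and the mitosis median 1.07, beside 0.10 over all genes. Mcm4, with the smallest p of the S phase members, had 129.7, 99.2 and 88.4 CPM in KEP tumor and 218, 121 and 135 CPM in KEP lymph node, and Mcm5 had 146, 75.9 and 75.8 CPM in KEP tumor and 184, 82.6 and 96.7 CPM in KEP lymph node. Both sets of ranges overlapped. For the fits with libraries left out that follow, the share of all genes called is not given. The number of calls was 22 without KEP lymph node replicate 1, 1 without replicate 2 or without replicate 3, 2 without KEP tumor replicate 3, 28 with the date block, 1 of them lower, where 35.5% of genes were called higher, and 26 without all 18_5_18 libraries. Without those libraries 26 mitosis and 12 S phase members were higher in tumor without overlap, against 42.4% of genes, and 2 S phase members lower, against 36.3%. Scaled to pan-T counts, 30 members were called higher against spleen, where 39% of genes were and the median of all genes was 1.07, and 11 against lymph node, where 34.9% of genes were and that median was 0.96. Pan-T levels of 31.6 to 104.5% in tumor moved with these results, and the part of other dividing cells in the tumor was not tested.

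Across the other tissues, with spleen as the common reference, a few members were called higher in lung in both genotypes, a smaller share than of all genes. These contrasts share the spleen libraries of their genotype. Pcna (chr2:132249162-132253314, 5 exons) had 294, 201 and 191 CPM in KEP lung and 102, 84.6 and 83.2 CPM in KEP spleen, a log2 fold change of 1.34 ± 0.20 (SE; edgeR adjusted p of 1.41e-05). It had 196, 219 and 215 CPM in WT lung and 71.3, 77.9 and 92.5 CPM in WT spleen, a log2 fold change of 1.38 ± 0.20 (SE; 1.06e-05). Kif23 had 119.9, 60.8 and 55.5 CPM in KEP lung and 20.9, 8.43 and 10.4 CPM in KEP spleen, and 38.1, 63.0 and 45.8 CPM in WT lung and 5.07, 5.39 and 6.42 CPM in WT spleen. Every lung library was above every spleen library for both genes.

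Ccne2 had 21.5, 8.97 and 7.12 CPM in KEP lung and 2.93, 1.505 and 1.25 CPM in KEP spleen, and 7.42, 6.41 and 8.01 CPM in WT lung and 0.188, 0.257 and 0.299 CPM in WT spleen. It rose by log2 fold changes of 2.73 ± 0.58 in KEP and 4.80 ± 0.72 in WT lung (SE; edgeR adjusted p of 0.000927 in KEP and 1.92e-05), the WT value resting on 9 spleen reads in all, with the overlap of Ints8 noted above. Ccne2, Pcna and Kif23 were the 3 members called in KEP lung, where 14.7% of genes were called higher. WT lung had 6, these 3 with Cdt1, Ccnb2 and Stmn1, where 15.1% were. In both genotypes the share of the 45 members called lay below that of all genes. Mcm5 was not among them, with 160.4, 50.4 and 57.2 CPM in KEP lung and 108, 80.8 and 71.5 CPM in KEP spleen.

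In KEP lung 1 mitosis and 3 S phase members were above spleen without overlap, below the 24.8% of all genes. Leaving out the 18_5_18 libraries, which can only raise such counts, gave 12 mitosis and 7 S phase members above, against 31.3% of genes. It also gave 3 mitosis and 5 S phase members below, against 32.4%. In WT lung 22 of 27 mitosis members and 9 of 18 S phase members were above without overlap, against 24.9%, and 4 S phase members were below, against 22.5%. The median log2 fold change over the mitosis members was 0.97 in KEP lung and 1.06 in WT lung. Mki67 had 52.5, 44.2 and 56.2 CPM in WT lung and 18.4, 19.7 and 26.1 CPM in WT spleen, without overlap, at a log2 fold change of 1.25 ± 0.60 (SE; edgeR adjusted p of 0.133). The WT lung count was 3 without WT spleen replicate 1 or 2 and 3 without WT lung replicate 1 or 3. Shares of all genes called in those fits are not given. With title date as a block the count was 5 in KEP lung and 10 in WT lung, where 16.1% of genes were called higher in each.

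Between blood and spleen of KEP mice the median log2 fold change was -0.39 over the 8 licensing members and 0.08 over the mitosis members, and none of either passed the test. Mki67 had 209, 141 and 135 CPM in KEP blood and 167, 73.0 and 65.9 CPM in KEP spleen, with overlap, at a log2 fold change of 0.67 ± 0.57 (SE). Mcm2 had 49.6, 58.0 and 44.0 CPM in KEP blood and 96.0, 78.8 and 75.3 CPM in KEP spleen, and Mcm5 had 55.5, 59.3 and 40.4 CPM in KEP blood and 108, 80.8 and 71.5 CPM in KEP spleen. Both licensing members were lower in each blood library, at log2 fold changes of -0.72 ± 0.44 and -0.75 ± 0.56 (SE), and 6 S phase members had this order, against 17.9% of genes. No member was higher without overlap, against 19.4%. Leaving out the 18_5_18 libraries gave 12 mitosis and 2 S phase members higher without overlap, against 27% of genes. It gave 2 mitosis and 9 S phase members lower, against 25.4%. No member was called by edgeR in the fit of all libraries, where 3.38% of genes were called lower, and none had an unadjusted p under 0.05. The 24-library fit with title date as a block called Mcm2, Mcm5 and Cdt1 lower and Kif23, Cenpe, Cenpf and Mki67 higher, where 33.6% of genes were called, 16.4% higher. Without the 18_5_18 libraries it called Mcm2 and Mcm5 lower, at -0.61 ± 0.18 and -0.62 ± 0.18 (SE), and Ccnb2, Cenpe, Ube2c and Mki67 higher, where 12.5% of genes were called, 6.57% higher.

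In WT mice most mitosis members were above spleen in every blood library, and 2 passed the test. Mki67 had 95.7, 101 and 101 CPM in WT blood and 18.4, 19.7 and 26.1 CPM in WT spleen, a log2 fold change of 2.21 ± 0.61 (SE; edgeR adjusted p of 0.0269). Ccnb2 had 12.7, 12.4 and 11.9 CPM in WT blood and 2.72, 1.97 and 3.36 CPM in WT spleen, a log2 fold change of 2.19 ± 0.62 (SE; 0.0311). These were the 2 members called, where 4.48% of genes were called higher, a share close to that of the members. Without overlap were 22 of 27 mitosis members and 6 of 18 S phase members, against 15.8% of genes, with median log2 fold changes of 1.59 and 0.10. Mcm2 had 45.3, 53.9 and 62.8 CPM in WT blood and 72.3, 75.01 and 85.7 CPM in WT spleen, 1 of 3 S phase members below spleen without overlap, against 16.2% of genes.

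Both WT blood calls were lost when any single WT blood or WT spleen library was left out, and the 24-library fit called 7 mitosis members, Ccnb2, Kif23, Cenpe, Stmn1, Ube2c, Mki67 and Birc5, where 13.8% of genes were called higher. With title date as a block the count was 7 in the fit of all libraries and 24 in the 24-library fit, where 5.53% and 18.3% of genes were called higher. Erythroid markers, which include haemoglobin genes, summed to 1944 to 7967 CPM in WT blood and 27.83 to 259.5 CPM in WT spleen, and their part in these levels was not tested.

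Lymph node against spleen gave no call in either genotype. Ccne2 had 8.72, 1.43 and 1.89 CPM in KEP lymph node and 2.93, 1.505 and 1.25 CPM in KEP spleen, with overlap, and 0.982, 1.77 and 0.558 CPM in WT lymph node and 0.188, 0.257 and 0.299 CPM in WT spleen, without overlap. Stmn1 had 108, 25.9 and 40.1 CPM in KEP lymph node and 54.1, 23.02 and 18.9 CPM in KEP spleen, and 13.04, 22.5 and 21.4 CPM in WT lymph node and 6.10, 6.68 and 12.03 CPM in WT spleen. Their edgeR adjusted p-values were 0.479 and 0.671 in KEP and 0.228 and 0.607 in WT mice. No member was without overlap in KEP mice, against 15.2% of genes higher, and 12 mitosis and 4 S phase members were in WT mice, against 11.7%. Leaving out the 18_5_18 libraries gave 10 members higher without overlap in KEP mice, against 23.5% of genes, and 4 lower, against 23.6%. At an unadjusted p under 0.05 there were no members in KEP and 1 in WT mice, and with the date block the 24-library fit called 3 (Mcm6, Pcna and Ccne2) and 4, where 9.4% and 7.5% of genes were called higher.

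**Figure D5:**
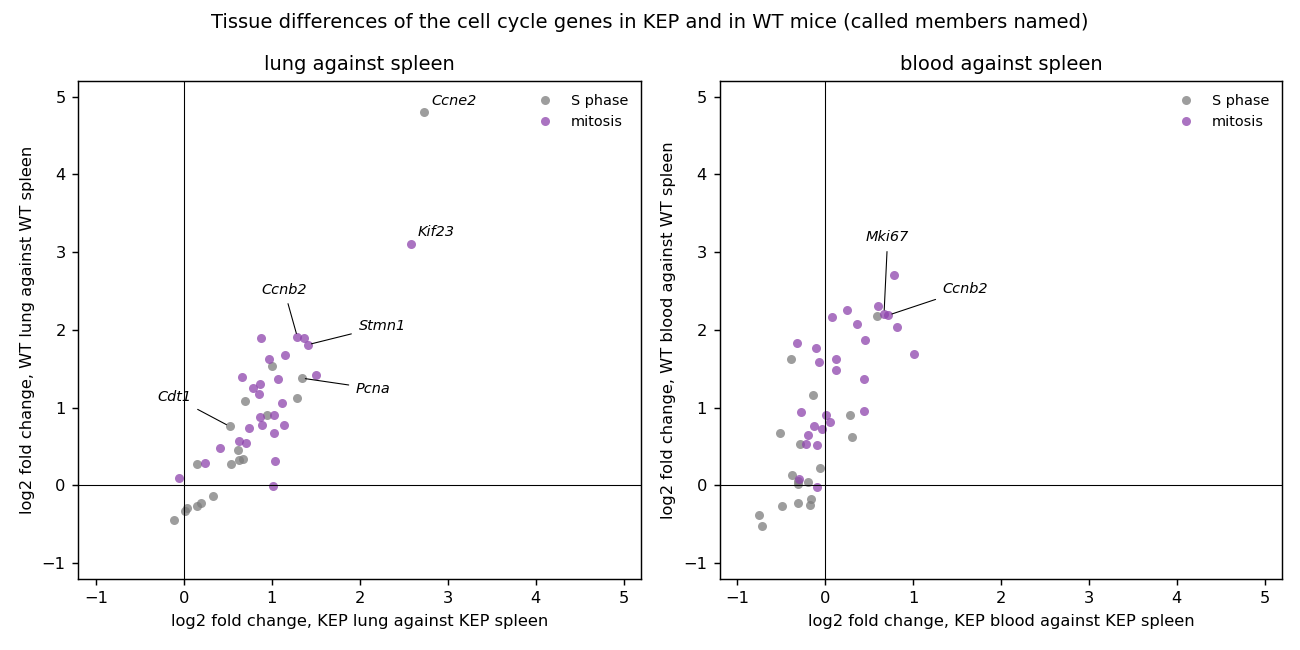
For each member, the log2 fold change of lung (left) and blood (right) over spleen in KEP mice (horizontal axis) against that in WT mice (vertical axis), S phase members in grey and mitosis members in purple; members called in either genotype are named. In lung Ccne2, Kif23 and Pcna lie to the upper right, at 2.73, 2.58 and 1.34 in KEP and 4.80, 3.11 and 1.38 in WT mice; in blood the mitosis members lie around 0 on the KEP axis, with a median of 0.08, and nearly all above 0 on the WT axis, with a median of 1.59.

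Across the groups Mki67 and Mcm5 were not ordered alike. For Mki67, the lowest groups were WT spleen with 18.4 to 26.1 CPM and WT lymph node with 30.4 to 43.3 CPM, then WT lung with 44.2 to 56.2 CPM and WT blood with 95.7 to 101 CPM, and none of these 4 ranges overlapped. KEP spleen, lymph node, lung, blood and tumor overlapped one another with 62.2 to 316 CPM, as well as the WT blood range in spleen, lymph node and lung, and WT mammary gland spanned 31.1 to 248 CPM. For Mcm5, the lowest libraries of the 4 tissues other than mammary gland and tumor were in blood, with 40.4 to 59.3 CPM in KEP and 44.1 to 61.4 CPM in WT blood, overlapping with each other and with lung.

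Genes of the same pathways outside the 45, also chosen with earlier results of these data known, were set beside the 2 classes. Of 44 other mitosis genes, 31 had every KEP spleen library above every WT spleen library, with a median log2 fold change of 1.55, and none was called. Of 30 other replication genes 8 did, with a median of 0.34. In lymph node these counts were 25 and 11, with medians of 1.53 and 0.60, in lung 19 and 3, with medians of 1.71 and 0.54, and in blood 13 and 2, with medians of 0.51 and -0.05. The shares of all genes were 12.3% in spleen, 11.3% in lymph node, 14.6% in lung and 16% in blood. The replication counts in lung and blood lay below those shares. In blood 4 replication genes were lower without overlap, against 12.8% of genes. The 12 G1 cyclins, CDKs and E2F factors had a median of 0.12 in spleen, and the 18 CDK inhibitors, RB family and antiproliferative genes a median of 0.20, so genes that stop the cycle were not lower as a group. Of these lists, 3 genes were called between genotypes outside the tumor: Ccng1 rose in KEP lung by 0.63 (edgeR adjusted p of 0.0407), Cdkn2b rose in KEP blood by 3.05 (0.0038) and Myc fell in KEP blood by 0.88 (0.0237).

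Of the genes that brake the cycle, Cdkn1a (p21), a p53 target that inhibits cyclin-dependent kinases and binds Pcna, had 313, 216 and 262 CPM in KEP lung and 5.36, 3.085 and 4.37 CPM in KEP spleen, and 198, 187.5 and 241 CPM in WT lung and 1.69, 1.97 and 1.79 CPM in WT spleen. It rose by log2 fold changes of 5.95 in KEP and 6.83 in WT lung, and the inhibitor list had 7 called higher of 18 in KEP and 8 of 18 in WT lung, among them Btg2 and Tob2, where 14.7% and 15.1% of genes were called higher. In KEP tumor Cdkn1a had 358.5, 187.5 and 206 CPM, a log2 fold change of 5.88 over KEP spleen. Lungs were digested with Liberase and tumors with collagenase A, per the labels' protocols, and spleen, lymph node and blood have no digestion step there, so tissue and digestion cannot be told apart in these contrasts. Against mammary gland, 10 of the 18 inhibitors rose in tumor and 4 fell, where 23.5% of genes were called higher and 29.5% lower, with Cdkn2a at a log2 fold change of 6.84 and Cdkn2b at 4.22. Below the share of all genes, of the 44 other mitosis genes 3 rose (Cenpa, Smc4 and Incenp) and of the 30 other replication genes 3 rose (Gins3, Dbf4 and Slbp).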

How the data were processed

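RNA was sequenced from sorted CD25+ CD4 T cells of 10 groups, 31 libraries in all, with 8154765 to 15258958 counts each. Per the submitters' processing notes, TopHat2 2.1.0, TopHat, HTSeq and the GRCm38 build were used, and the authors deposited raw counts per gene. Libraries were stranded mRNA libraries, per the labels' protocols; the strand setting of the counting and the annotation release are not given in the sources used here. Of the 24594 genes, 172 were at 0 in every library.

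From the counts, genes were kept by the edgeR filter with a minimum count of 10 (15202 genes), scaled with TMM factors, and fitted with edgeR 4.0.16 (robust quasi-likelihood, R 4.3.3) as 10 group means over all 31 libraries. Calls needed an adjusted p (Benjamini-Hochberg, over all genes tested) under 0.05. The edgeR fit was tested on simulated counts with known folds in KEP spleen, for KEP against WT spleen and blood only. Groups otherwise shared a mean per gene, with a capped spread, unlike the tumor and mammary gland libraries. The other fits and steps were not tested on simulated counts. Replicates differed by more than sampling noise in every group, so none was merged. P-values measure the spread between libraries, of single mice in KEP and of pools of 3 mice in WT groups.

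Alternatives were RLE factors, no filter, DESeq2 1.42.0, limma 3.58.1 voom with a spread per group or with title date as a random block, sorted cell number as a covariate, a 2-fold minimum, pan-T scaling, fits of fewer libraries, title date as a fixed block, and each library left out. Libraries from different tissues of the same genotype can carry the same title date, but the titles do not say what that date marks. After removing group means, libraries of the same date correlated in 18 of 18 KEP pairs over spleen, lymph node, lung and blood above 0.1 (median 0.2521) and in 8 of 18 WT pairs (median 0.08984). Pairs with tumor had correlations of -0.1122 to 0.1035 and pairs with mammary gland -0.1247 to 0.04934, so the date block of the tumor comparisons rests on the titles alone.

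Members and other lists were chosen with earlier results of these data known. Values are given in every library for 11 members chosen by role and, in each comparison, for the member of each class with the smallest and the largest p, and full statistics for up to 4 called members of a class. Other lists give counts and up to 3 called genes. Gene positions and exon lengths are from GENCODE M21 on GRCm38, and promoters from RefSeq on GRCm38.p6.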

Additional observations from a re-analysis of the deposited data

How the results depend on the processing

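The share of all genes called moved with the fit. In KEP against WT spleen it was 0.447% over all libraries and 4.26% in the 24-library fit. Counts of members in this section are given without that share and do not set the members apart from other genes. The number of members called depended on the fit too. Over all libraries it was 0 in spleen, lymph node, lung and blood between genotypes, 2 for tumor against mammary gland, 15 against spleen, 4 against lymph node, 3 and 6 for KEP and WT lung against spleen, 2 for WT blood against spleen and 0 for the remaining tissue comparisons. RLE factors gave 8 for tumor against lymph node; without the filter this was 2 and WT blood 0. DESeq2 gave 4 in spleen, 3 in lung, 9 for tumor against lymph node and 8 in WT blood. Voom with a spread per group gave 1 in spleen, 2 in lymph node, 1 in lung, 0 for tumor against mammary gland, 6 against spleen, 2 against lymph node and 6 in KEP lung. Sorted cell number as a covariate gave 0 for tumor against mammary gland and 0 in WT blood, and the 2-fold minimum gave 1 for tumor against mammary gland. The 24-library fit gave 2 in spleen, 1 in lymph node, 7 in lung, 5 in KEP lung, 1 in KEP blood and 7 in WT blood. Pan-T scaling gave 45 for tumor against mammary gland, 30 against spleen and 11 against lymph node. It moved the median of all genes against mammary gland to -3.41, with most members above that median, Cdt1 at -2.37 and Tk1 at -2.01 among them. The random date block gave 8 for tumor against mammary gland. The fixed replicate block by title date gave 34 for tumor against spleen, 28 against lymph node, 5 in KEP lung, 10 in WT lung and 7 in WT blood, and changed no other count past 1.5 times. Fits of only the libraries compared gave 9 in spleen, 7 in blood, 0 for tumor against mammary gland, 5 in KEP blood, 7 in WT lymph node, 30 in WT lung and 25 in WT blood.

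With 1 library left out, counts were 0 to 9 for tumor against mammary gland, 2 to 25 against spleen, 1 to 22 against lymph node, 3 to 4 in KEP lung, 3 to 5 in WT lung, 0 to 0 in WT blood and 0 to 0 elsewhere; Ccne2 in KEP lymph node against spleen turned to -0.18 without KEP lymph node replicate 1.

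The following alternatives were chosen after seeing the data. Without the 18_5_18 libraries the count was 0 for tumor against mammary gland, 29 against spleen and 26 against lymph node; in the 24-library fit it was 18 in spleen, 2 in lymph node, 2 in lung, 3 in blood, 12 in KEP lung and 6 in KEP blood. The 24-library fit with the date block gave 3 and 4 in KEP and WT lymph node, 21 and 20 in lung, 7 and 24 in blood, 1 for the KEP effect in lymph node against lung and 9 against blood. Mammary gland replicate 2 as the lone control gave 16. Of the values of single named members, 882 planned ones kept direction and side of the threshold, 46 passed it, 81 lost it and 3 turned sign; of the added ones 87 kept both, 30 passed it and 3 lost it. The cause was not tested for any of these. Depth limits the lowest members most: Ccne2 in WT spleen rests on 2 to 4 reads per library.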
